A study of Mus musculus with 26 samples.

Results

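Mbp, Mobp, Mog, Mag, Cnp, Cldn11, Mal, Ugt8a and Sox10 are 9 genes of myelin and of oligodendrocytes, the glial cells that wrap axons of the central nervous system. They were chosen by name. All 9 of 9 are listed in each of the 3 deposited tables, with 1 transcript each, among 9561 transcripts in the LRRK2 KO table and 8576 in each of the 2 tables of transgenic mice. Myelin is a stack of tightly apposed oligodendrocyte membrane, rich in cholesterol and galactolipids, that speeds the conduction of action potentials. In the striatum it surrounds the axon bundles that cross the caudate putamen between the spiny neurons. Some of its mRNAs, that of Mbp above all, are carried in granules along oligodendrocyte processes and translated next to the growing sheath.

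The study asked how LRRK2, a kinase altered in inherited Parkinson's disease, affects translation in the mouse caudate putamen. Ribosome footprinting, which sequences the mRNA fragments that ribosomes protect from nuclease, was set beside RNA-Seq, and their ratio is the translational efficiency (TE). GS LRRK2 TG mice carried a G2019S LRRK2 transgene, GS/DA LRRK2 TG mice carried a transgene with G2019S and the kinase-dead change D1994A, and both were compared with non-TG control mice. LRRK2 KO mice lacked LRRK2 and were compared with WT mice. All mice were C57BL/6 and 3 months old by the labels, and each library was made from a pool of 3 mice of mixed sex. The transgenes were driven by CaMKII-tTA in a Tet-off system, a driver used for forebrain neurons. Which cells of the tissue expressed the transgenes, and whether oligodendrocytes did, was not tested here. The replicate libraries are pools, and the p-values here measure the spread between these libraries.

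The authors deposited a normalized mean for every group and assay, made from reads in the coding sequence (CDS). Because 2 libraries of unlike depth are scaled by unlike factors, only 1 pair of whole read numbers usually gives the deposited mean, and by this the single libraries were recovered for 10 of the 12 columns. The means of the non-TG control in the GS LRRK2 TG table did not resolve, so that comparison has no spread between controls and is a description. The recovered footprinting libraries held 2889300 to 18508000 reads, and the RNA-Seq libraries 3168000 to 14531000. Libraries are named library 1 and library 2 of a group. The deposited columns carry no replicate numbers, and library 1 of a control and of its genotype were matched because the same transcripts differed between libraries in both groups. All values below are normalized reads, and each table was normalized separately.

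Lrrk2 was examined first. In the LRRK2 KO table, Lrrk2 footprints were 400.3 and 690.1 in the WT libraries and 102 and 150 in the LRRK2 KO libraries. They were 1445 and 1224 in the non-TG control libraries compared with GS/DA LRRK2 TG, against 7267 and 4766 in those of GS/DA LRRK2 TG. In the GS LRRK2 TG table the authors' control mean was 2524 and the GS LRRK2 TG libraries held 7052 and 3320. Lrrk2 was lower in LRRK2 KO and higher in GS/DA LRRK2 TG without overlap of the groups. Both GS LRRK2 TG libraries lay above the control mean. These are the directions the labels call for. Yet that control mean, 2524, itself exceeded the 1445 and 1224 of the recovered non-TG libraries. For the 9 genes the summed footprint means went the other way, with 34918 in the unresolved control and 42832 in the recovered one. The reason was not tested, and every comparison in GS LRRK2 TG rests on that unresolved control. Lrrk2 RNA-Seq reads were 1278 and 733 in WT and 423 and 270 in LRRK2 KO, lower without overlap. In the transgenic mice they were not higher: 5038 and 404 in GS/DA LRRK2 TG against 5233 and 560 in its control, and 3550 and 214 in GS LRRK2 TG beside a control mean of 2105. So in the transgenic tables only the footprints showed the labelled direction. The log2 ratio of the means was -2.12 for LRRK2 KO, 2.17 for GS/DA LRRK2 TG and 1.04 for GS LRRK2 TG in footprints, and -1.54, -0.09 and -0.16 in RNA-Seq. With 2 libraries a group, limma did not call Lrrk2 in the footprints of GS/DA LRRK2 TG (Benjamini-Hochberg adjusted p = 0.569). Nor did it call Lrrk2 in the footprints or the RNA-Seq of LRRK2 KO, so that fit missed the deleted gene itself. With the matched libraries as a block, limma called Lrrk2 in the footprints of GS/DA LRRK2 TG (Benjamini-Hochberg adjusted p = 4.4e-07) and of LRRK2 KO (Benjamini-Hochberg adjusted p = 6.8e-28). Over the 4 alternatives of the GS/DA LRRK2 TG fit that kept every library, the adjusted p of Lrrk2 from limma ranged from 4.4e-07 to 0.567, and over the 3 of LRRK2 KO from 6.8e-28 to 1.

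Of 15 spiny neuron markers sought, 13 are listed in each table. The authors had discarded transcripts with few reads, so presence of a listed marker in every column is no test. No footprinting mean of the 13 was below 1086.8 in the transgenic tables or below 217.5 in the LRRK2 KO table. Ppp1r1b, which encodes the dopamine-regulated phosphatase inhibitor of spiny neurons, had the highest level per kb of CDS among them in every column.

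In the non-TG control of the GS/DA LRRK2 TG table, Mbp and Cnp were the most abundant of the 9 genes per kb of CDS. Mbp encodes the basic protein that holds the cytoplasmic faces of compact myelin together, and its footprints per kb were 10508 in library 1 and 11745 in library 2. Cnp encodes a phosphodiesterase of the cytoplasmic channels of the sheath, and its footprints per kb were 10215 and 11755. The order of Mbp and Cnp was not the same in both libraries, so they do not differ beyond their spread. Cldn11, the claudin that forms the tight junctions between myelin layers, followed with 5091 and 8359 footprints per kb. Mal, a small proteolipid of myelin membrane domains, had 5300 and 6146, and the order of Cldn11 and Mal also differed between the libraries. These 4 genes lay above the other 5 in both libraries.

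The remaining genes of the sheath were lower per kb of CDS in the same control. Mag, an adhesion molecule of the membrane that faces the axon, had 2072 and 2776 footprints per kb. Mobp, a small basic protein of compact myelin, had 1888 and 2765, with library values that overlapped those of Mag. Mog, the immunoglobulin-domain protein on the outermost surface of the sheath, had 1326 and 1638, below Mag and Mobp in both libraries. Ugt8a, the enzyme that makes galactosylceramide, had 964 and 1033, and Sox10, the transcription factor that drives oligodendrocyte genes, had 679 and 967. Ugt8a was above Sox10 in both libraries, although library 2 of Sox10 reached library 1 of Ugt8a. Among 8329 transcripts with an annotated CDS, the footprints per kb of the 9 genes ranged from the 66.9 percentile (Sox10) to the 97.8 percentile (Mbp).

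In WT of the LRRK2 KO table, which was normalized on its own, Cnp stood above Mbp. Cnp footprints per kb were 2899 and 6213 in the WT libraries, and those of Mbp were 2511 and 2426. The lowest were Sox10, with 264 and 334 footprints per kb, and Ugt8a, with 200.6 and 360. Sox10 and Ugt8a changed order between the WT libraries. Of the 9 genes, 3 had the same place in the order of the authors' means in WT as in the non-TG control of the GS/DA LRRK2 TG table. In the footprints of WT the 9 genes ranged from the 74.8 to the 98.9 percentile of 9272 transcripts per kb.

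Together the 9 genes took 0.310% and 0.385% of the CDS footprints in GS/DA LRRK2 TG libraries and 0.322% and 0.393% in those of its non-TG control. They took 0.335% and 0.367% in the GS LRRK2 TG libraries. In the LRRK2 KO table the shares were 0.270% and 0.379% in WT and 0.271% and 0.353% in LRRK2 KO. Library 2 had the larger share in all 5 groups, and the shares of control and genotype overlapped in both tables where the control was recovered. The tissue was lysed whole, so fewer oligodendrocytes and less RNA per oligodendrocyte cannot be told apart.

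In GS LRRK2 TG, 8 of the 9 genes had a footprinting mean above that of the non-TG control, against 51.2% of all transcripts. The median log2 ratio of the means was 0.13 for the 9 genes and 0.00 for all 8576 transcripts. Both GS LRRK2 TG libraries lay above the authors' control mean for 5 of 9 genes, against 19.6% of all transcripts, and both lay below it for 0 of 9, against 20.8%. The 9 genes share cells and libraries, so they are not independent observations of the genotype. None of the 9 passed a log2 difference of 0.5 in footprints, as 0.338% of all transcripts did.

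The highest ratio was that of Mobp, with a control mean of 1157 and 1280 and 1572 footprints in the GS LRRK2 TG libraries. Mal had a control mean of 2206 and 2527 and 2591 in the libraries. Mbp had a control mean of 9944 and 10574 and 12328 in the libraries. For each of these 3 genes both libraries were above the control mean, and the log2 ratio of the means was 0.30 for Mobp, 0.21 for Mal and 0.20 for Mbp. They stood at the 98.3, 94.97 and 94.3 percentiles of the table. Mag, with a control mean of 3842, had 3992 and 4426, and Mog, with 876.5, had 876.8 and 1135, so library 1 of Mog lay almost at the control mean.

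The other 4 genes had 1 library on each side of the control mean in GS LRRK2 TG. Cnp had a control mean of 11063 and 12228 and 10788 footprints in the libraries. Cldn11 had a control mean of 3621 and 3112 and 4601 in the libraries. Ugt8a had a control mean of 1309, and its libraries held 1280 and 1392. The log2 ratios of the means were 0.06 for Cnp, 0.09 for Cldn11 and 0.03 for Ugt8a. Sox10 alone of the 9 had a mean below the control, with 900.2 in the control and 653 and 1003 in the libraries, a log2 ratio of -0.12. Library 2 over library 1 was 0.56 for Cldn11 and 0.61 for Sox10 on the log2 scale, and -0.18 for Cnp and 0.12 for Ugt8a.

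**Figure D1:**
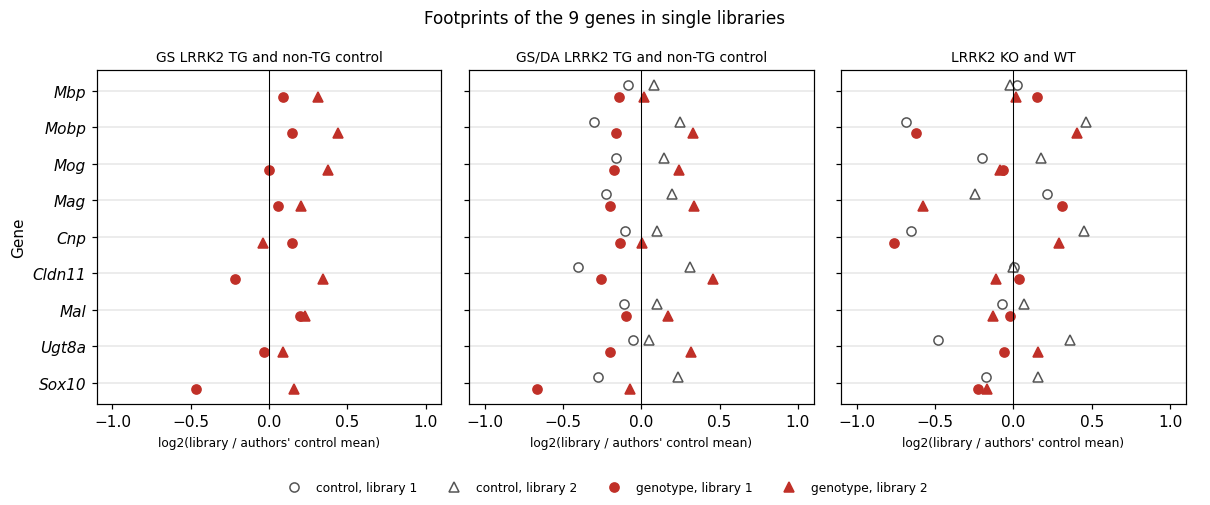
Footprints of each gene in each recovered library, as the log2 ratio to the authors' control mean of the same table (x axis), by gene (y axis), with open symbols for control and filled symbols for genotype. In the panel of GS LRRK2 TG the control libraries were not recovered and the libraries ran from -0.46 to 0.44. In the panels of GS/DA LRRK2 TG and LRRK2 KO the filled and open symbols overlap for all 9 genes.

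RNA-Seq of GS LRRK2 TG gave means above the control for 7 of 9 genes, beside 3796 of all 8576 transcripts, with a median log2 ratio of 0.11 for the 9 genes and -0.02 for all transcripts. None of the 9 passed a log2 difference of 0.5 in RNA-Seq, where 2.95% of all transcripts did, or in TE, where 3.58% did. The largest TE difference of the 9 was that of Mobp, whose log2 TE was -0.19 in the control, against 0.23 in GS LRRK2 TG, a difference of 0.42 at the 94.4 percentile. Its RNA-Seq mean was 1323 in the control, and the GS LRRK2 TG libraries held 545 and 1885 on either side of it. The TE difference of Mobp was therefore smaller than the distance between its RNA-Seq libraries. Sox10 had the lowest TE difference, -0.19.

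In GS/DA LRRK2 TG, footprint means were above the control for 6 of 9 genes, beside 4075 of all 8576 transcripts, with a median log2 ratio of 0.05 for the 9 genes and -0.01 for all transcripts. The groups of libraries overlapped for all 9 genes, whereas 12% of the transcripts tested lay wholly higher and 12.3% wholly lower in GS/DA LRRK2 TG. Between matched libraries, 4 of 9 genes were higher in both (28.3% of all transcripts) and 3 of 9 were lower in both (32.4%), shares near the background, and a share near the background is not a result about the 9 genes. By limma, 0 of 8474 transcripts (0%) and 0 of the 9 genes passed a Benjamini-Hochberg adjusted p of 0.05, and 143 transcripts, none of them among the 9, had an unadjusted p under 0.05.

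Sox10 stood lowest of the 9 in GS/DA LRRK2 TG. Sox10 footprints were 949 and 1352 in non-TG control libraries, against 725 and 1093 in GS/DA LRRK2 TG. Library 2 of the genotype lay between the control libraries, so the groups overlapped, and each genotype library was below its matched control. The log2 ratio of the means was -0.34, at the 1.201 percentile of the table, and the matched differences were -0.38 and -0.30. By limma, the log2 change of Sox10 was -0.34 with an SE of 0.25 (Benjamini-Hochberg adjusted p = 1.00). With the matched libraries as a block the SE was 0.07 and limma called Sox10 lower (Benjamini-Hochberg adjusted p = 0.033). Sox10 was the only 1 of the 9 called in that fit, where 84 transcripts (0.991%) were called lower, and the matching rests on the data, not on the labels. Over the 4 alternatives that kept every library, the adjusted p of Sox10 from limma ranged from 0.033 to 1, and with each library left out in turn its log2 change ranged from -0.64 to -0.05 with an adjusted p of 0.441 or more.

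The RNA-Seq reads of Sox10 in the same table were 301 and 1341 in non-TG control libraries, against 279 and 1330 in GS/DA LRRK2 TG. Library 1 was low and library 2 high in both groups, and the log2 ratio of the means was -0.03. The TE of Sox10 from the deposited means differed by -0.31 on the log2 scale, and the limma estimate was -0.28 with an SE of 1.34 (Benjamini-Hochberg adjusted p = 1.00). In the GS LRRK2 TG table the footprint ratio of Sox10 was -0.12 and the RNA-Seq ratio 0.07. Its control is also non-TG, but the libraries that entered it are not named, so both comparisons may share control libraries. In LRRK2 KO its footprints were 369 and 466 in WT and 357 and 372 in LRRK2 KO, a log2 ratio of -0.20 with overlapping groups.

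The structural genes of compact myelin showed small differences in GS/DA LRRK2 TG. Mbp footprints were 11696 and 13072 in the control, against 11199 and 12549 in GS/DA LRRK2 TG. Mobp footprints were 1057 and 1548 in the control and 1166 and 1641 in GS/DA LRRK2 TG. Mal footprints were 2433 and 2821 in the control and 2454 and 2954 in GS/DA LRRK2 TG. In all 3 genes library 2 was higher than library 1 in both groups, and the groups overlapped. The log2 changes by limma were -0.06 ± 0.12 (SE) for Mbp, 0.11 ± 0.24 for Mobp and 0.04 ± 0.14 for Mal, each within its SE.

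Cldn11 had the highest ratio of the 9 in GS/DA LRRK2 TG. Its footprints were 3161 and 5191 in the control, against 3501 and 5744 in GS/DA LRRK2 TG, with a log2 ratio of the means of 0.15. Both matched differences were 0.15, yet library 2 exceeded library 1 by 0.71 on the log2 scale in each group. Cnp footprints were 12871 and 14812 in the control and 12569 and 13896 in GS/DA LRRK2 TG, a log2 ratio of -0.06. Library 2 of Cnp was high in both groups, and the GS/DA LRRK2 TG libraries overlapped those of the control.

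The surface proteins and the lipid enzyme lay close to their controls. Mag footprints were 3959 and 5306 in the control and 4038 and 5858 in GS/DA LRRK2 TG, a log2 ratio of 0.10. Mog footprints were 983 and 1214 in the control and 973 and 1299 in GS/DA LRRK2 TG, a log2 ratio of 0.05. Ugt8a footprints were 1564 and 1676 in the control and 1412 and 2016 in GS/DA LRRK2 TG, a log2 ratio of 0.08. The GS/DA LRRK2 TG libraries of Mog and of Ugt8a lay on both sides of the control libraries, and those of Mag overlapped them. Ugt8a went in opposite directions in the matched libraries, by -0.15 and 0.27.

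RNA-Seq libraries of the transgenic tables differed far more than the genotypes did. Cldn11 had 423 and 3244 RNA-Seq reads in the non-TG control, against 462 and 3590 in GS/DA LRRK2 TG. Cnp had 3610 and 12301 in the control and 3196 and 13204 in GS/DA LRRK2 TG. Ugt8a had 641 and 393 in the control and 820 and 348 in GS/DA LRRK2 TG. Library 2 was higher than library 1 for 7 of 9 genes in both groups of this table and in GS LRRK2 TG, and lower for Mal and Ugt8a. The difference between library 2 and library 1 in the control was 2.91 on the log2 scale for Cldn11 and -0.69 for Ugt8a.

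In the transgenic tables the same split of libraries ran through all transcripts and went with base composition. Across transcripts, which are not independent replicates, the difference between the RNA-Seq libraries had a Spearman correlation with the GC content of the CDS of 0.778 in the non-TG control (n = 8287), 0.802 in GS/DA LRRK2 TG (n = 8277) and 0.791 in GS LRRK2 TG (n = 8303). Ugt8a has the lowest GC content of the 9 (44.6%) and Sox10 the highest (63.2%), and Mal, with 53.0%, has the third lowest after Mog with 51.6%. Mog nevertheless had more RNA-Seq reads in library 2, with 741 and 1280 in the control. Whether base composition sets these differences was not tested. In footprints the correlation was 0.433 in the control and 0.466 in GS/DA LRRK2 TG, and library 2 was higher for 9 of 9 genes in both. The LRRK2 KO table did not follow this, with correlations of 0.036 in WT and 0.272 in LRRK2 KO for RNA-Seq and -0.54 and -0.233 for footprints.

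Against this spread, the RNA-Seq of the 9 genes gave no call in GS/DA LRRK2 TG. Means were above the control for 6 of 9 genes, as for 5551 of all 8576 transcripts, with a median log2 ratio of 0.05 for the 9 genes and 0.06 for all transcripts. Between matched libraries, 2 of 9 genes were higher in both (21.7% of all transcripts) and 1 of 9 lower in both (16.1%). The 2 were Mobp, with 537 and 1840 RNA-Seq reads in the control and 859 and 1952 in GS/DA LRRK2 TG, and Cldn11. By limma, 0 of 8508 transcripts (0%) passed for RNA-Seq and 0 of 8463 (0%) for TE after Benjamini-Hochberg adjustment, and the number with an unadjusted p under 0.05 was 0 in both.

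**Figure D2:**
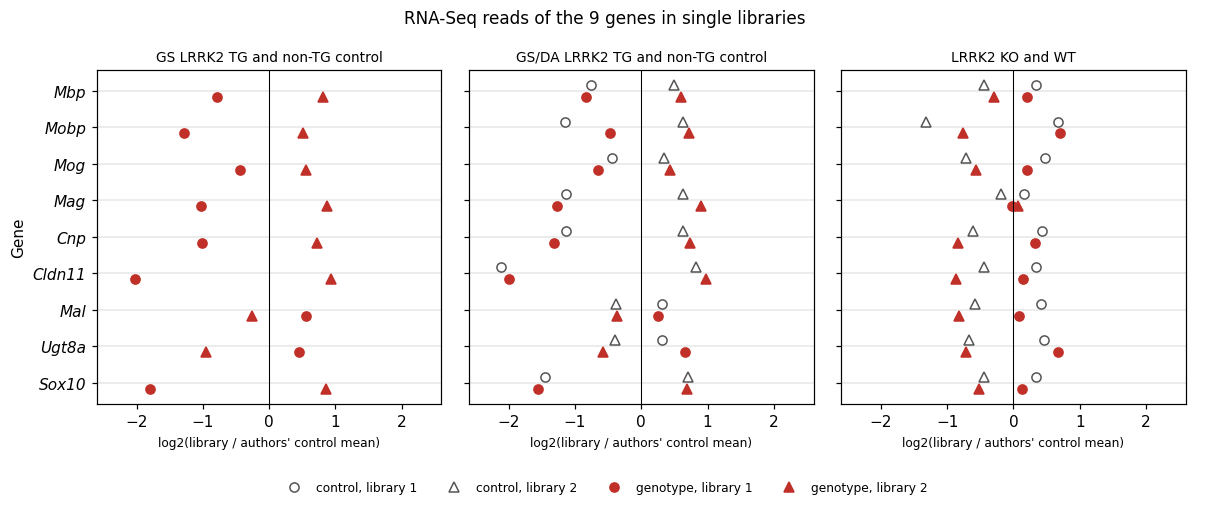
RNA-Seq reads of each gene in each recovered library, as the log2 ratio to the authors' control mean of the same table (x axis), by gene (y axis), with open symbols for control and filled symbols for genotype. In the GS/DA LRRK2 TG table library 1 ran from -2.12 to 0.31 in the control, and circles and triangles lie apart while open and filled symbols lie together.

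In LRRK2 KO, footprint means were above WT for 2 of 9 genes, Mbp and Ugt8a, beside 5201 of all 9561 transcripts, with a median log2 ratio of -0.07 for the 9 genes and 0.02 for all transcripts. The groups overlapped for all 9 genes, while 6.21% of all transcripts lay wholly higher and 6.4% wholly lower in LRRK2 KO. Both matched libraries were higher for 1 of 9 genes (24.3% of all transcripts) and lower for 2 of 9 (19.4%), shares near the background. By limma, 0 of 9544 transcripts (0%) and 0 of the 9 genes passed after Benjamini-Hochberg adjustment, and 7 transcripts, none of the 9, had an unadjusted p under 0.05. With the matched libraries as a block limma called 6 transcripts lower (0.0629%), and 0 of the 9 genes in either direction.

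Mbp footprints were 2795 and 2701 in the WT libraries and 3048 and 2778 in the LRRK2 KO libraries. Library 2 of LRRK2 KO lay between the WT libraries, and the log2 change by limma was 0.08 ± 0.17 (SE). Cnp footprints were 3652 and 7829 in WT and 3388 and 7030 in LRRK2 KO. Mobp footprints were 310 and 687 in WT and 324 and 660 in LRRK2 KO. Library 2 held more than library 1 for Cnp and Mobp in both groups, by 1.098 and 1.12 on the log2 scale in WT, while the ratio of the means was -0.14 for Cnp and -0.02 for Mobp.

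Mag went the other way between libraries, with 1260 and 917 footprints in WT and 1347 and 729 in LRRK2 KO. The LRRK2 KO libraries of Mag lay on both sides of the WT libraries, with a log2 ratio of the means of -0.07. Mog footprints were 226 and 294 in WT and 248 and 245 in LRRK2 KO, so both LRRK2 KO libraries lay between the WT libraries. Ugt8a footprints were 326 and 584 in WT and 436 and 506 in LRRK2 KO, also between the WT libraries. Cldn11 footprints were 1311 and 1304 in WT and 1337 and 1211 in LRRK2 KO, and those of Mal were 754 and 830 in WT and 780 and 725 in LRRK2 KO. For Cldn11 and Mal the groups overlapped, with log2 ratios of -0.04 and -0.07.

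RNA-Seq of the LRRK2 KO table gave more reads in library 1 than in library 2 for 9 of 9 genes in WT and 8 of 9 in LRRK2 KO. Mobp had 2893 and 726 RNA-Seq reads in WT and 2943 and 1068 in LRRK2 KO. Mal had 1768 and 892 in WT and 1415 and 752 in LRRK2 KO, and Cldn11 had 2502 and 1449 in WT and 2188 and 1087 in LRRK2 KO. Both LRRK2 KO libraries of Mal and of Cldn11 were below their matched WT libraries, though the groups overlapped, and their ratios of the means, -0.30 and -0.27 on the log2 scale, were the lowest of the 9. In all, 4 of 9 genes were lower in both matched libraries (23.6% of all transcripts) and 1 of 9 higher in both (24.5%). The median log2 ratio was -0.13 for the 9 genes and 0.01 for all transcripts. By limma, 0 of 9539 transcripts (0%) passed for RNA-Seq and 0 of 9537 (0%) for TE after Benjamini-Hochberg adjustment. Unadjusted p-values under 0.05 were found for 7 transcripts in RNA-Seq and 2 in TE, none of the 9 among them.

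By the deposited means, TE differed more between the 9 genes than between the genotypes. The RNA-Seq libraries of 1 group differed by gene as widely. In the non-TG control of the GS/DA LRRK2 TG table, library 2 over library 1 ran from -0.69 (Ugt8a) to 2.91 (Cldn11) on the log2 scale. The order of the genes by TE therefore depends on the library. The authors' log2 TE was compared with the median of all transcripts of the same group, since the scale of TE depends on the normalization of each table. In the non-TG control of the GS/DA LRRK2 TG table all 9 genes lay above the median, from 0.08 (Mog) to 1.61 (Ugt8a). Above the median were 8 of 9 in the control of the GS LRRK2 TG table, from -0.02 (Mobp) to 1.70 (Ugt8a). In WT 3 of 9 did, from -1.22 (Mobp) to 0.29 (Cnp).

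By the deposited means, Ugt8a had the highest TE of the 9 in the transgenic tables, at the 98.3 percentile in the control of the GS/DA LRRK2 TG table, but stood at the 58.7 percentile in WT. Cldn11 followed, at the 93.7 percentile in that control and the 52.6 percentile in WT. Footprint means per kb in that control were 998 for Ugt8a and 6725 for Cldn11. Their RNA-Seq reads per kb were 395 and 681 in library 1, and 242 and 5225 in library 2. Against RNA-Seq library 1 alone Cldn11 would stand above Ugt8a, so their order depends on the library. Mobp was near the median in the controls of both transgenic tables, at the 54.8 and 48.8 percentiles, and at the 7.34 percentile in WT. Cnp lay above the median in all 6 groups, at the 69.0 percentile in WT and the 84.9 percentile in the control of GS/DA LRRK2 TG. The TE of a group rests on RNA-Seq means whose libraries differed as given above, and the tables were normalized separately. Between control and genotype of 1 table, the TE differences of the 9 genes ran from -0.31 to 0.07 in GS/DA LRRK2 TG and from -0.17 to 0.23 in LRRK2 KO.

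**Figure D3:**
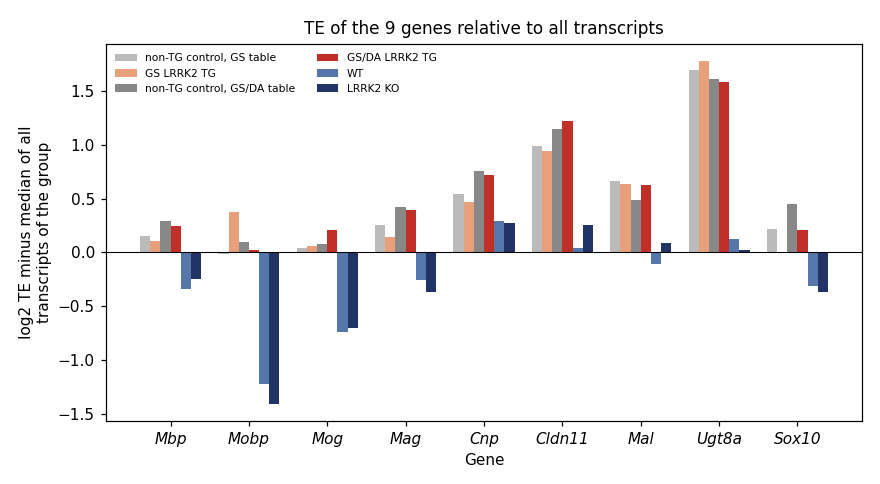
Authors' log2 TE of each gene minus the median of all transcripts of the group (y axis, log2 units), by gene (x axis), with 1 bar for each of the 6 group columns and no error bars because the deposited TE has none. Ugt8a and Cldn11 stand highest in the 4 columns of the transgenic tables, and Mobp stands lowest in WT (-1.22) and LRRK2 KO (-1.41). The bars rest on means over RNA-Seq libraries that differed, and the order of the genes depends on the library.

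The 5′UTRs of the 9 genes did not share a folding energy. The energy deposited with the tables, in kcal/mol and more negative for a more structured 5′UTR, ran from -228 for Mal to -32.5 for Mobp, with a median of all transcripts of -91.2 in the transgenic tables. Mal, Cnp (-145), Sox10 (-142), Mbp (-132) and Cldn11 (-112) were below that median, and Mog (-73), Ugt8a (-65.8), Mag (-34.4) and Mobp above it.

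The bases around the start codon are shown because ribosomes select the codon partly by them, with a purine placed before it and a G behind it known to favour initiation. They come from the annotated transcript with the longest CDS (GENCODE vM1, build NCBIM37), 5′ to 3′, with the start codon in capitals. Mbp is not shown, and the counts below do not cover it. For all 8 genes shown, the base at the third place before the start codon was a purine, against 86.4% of 7906 transcripts of the transgenic tables, and 4 of 8 had a G behind the start codon, against 52.5%. The start codons lie at chr9:120076923-120076925 (Mobp, plus strand), chr17:37160142-37160144 (Mog, minus strand), chr7:31696953-31696955 (Mag, minus strand), chr11:100436380-100436382 (Cnp, plus strand), chr3:31049072-31049074 (Cldn11, plus strand), chr2:127481867-127481869 (Mal, minus strand), chr3:125618375-125618377 (Ugt8a, minus strand) and chr15:78994144-78994146 (Sox10, minus strand).
Mobp: acccagtgagATGa
Mog: aaccataaagATGg
Mag: gctaaacaagATGa
Cnp: cccactcatcATGa
Cldn11: tgcggccaccATGg
Mal: gctcgcaggcATGg
Ugt8a: aggacgcgctATGa
Sox10: cgggagcgacATGg

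In the annotation, no exon of another gene overlapped the CDS of any of the 9 genes (0 of 9). The CDS over the union of isoforms ran from 459 bases in Mal to 1911 in Mag. The value for Mbp, 1113 bases in 10 blocks, includes exons of its longer isoforms, which lowers its level per kb.

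Other genes of mature oligodendrocytes, 41 of which are listed in the transgenic tables and 43 in the LRRK2 KO table, were examined beside the 9. In GS LRRK2 TG, 32 of 41 had a footprint mean above the control, beside 51.2% of all transcripts, with a median log2 ratio of 0.12. Both libraries lay above the control mean for 19 (19.6% of all transcripts) and below it for 5 (20.8%). In GS/DA LRRK2 TG 18 of 41 were above the control (4075 of all 8576), with a median of -0.01, and in LRRK2 KO 15 of 43 (5201 of all 9561), with a median of -0.08. The matched LRRK2 KO libraries had opposite medians, 0.10 and -0.28. Of these genes, 16 of 43 were lower in both (19.4% of all transcripts) and 2 higher in both (24.3%). In GS/DA LRRK2 TG, 13 of the 40 resolved were lower in both (32.4%) and 11 higher in both (28.3%). By limma, 0 of them passed in GS/DA LRRK2 TG or LRRK2 KO after Benjamini-Hochberg adjustment, and 1 and 0 had an unadjusted p under 0.05. The lowest in GS/DA LRRK2 TG was Opalin, a membrane protein of oligodendrocytes, with 434 and 457 footprints in the control and 306 and 325 in GS/DA LRRK2 TG. Its groups did not overlap, the log2 ratio was -0.50, and limma gave a Benjamini-Hochberg adjusted p of 1.00, while the fit with the matched libraries as a block called it lower. The highest was Kif5a, a kinesin found mainly in neurons although it is on this list, at 0.20. In GS LRRK2 TG the extremes were Il33 (0.65) and Enpp2 (-0.20), and in LRRK2 KO Apod (0.45) and Padi2 (-0.36).

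Genes of oligodendrocyte precursors and of the lineage had footprint means above the control for 9 of 12 in GS LRRK2 TG (median 0.07), 9 of 12 in GS/DA LRRK2 TG (median 0.10) and 4 of 15 in LRRK2 KO (median -0.10). Their TE was higher for 10 of 12, 1 of 12 and 5 of 15 in the same order (medians 0.15, -0.10 and -0.06), beside 4699 of 8576, 2872 of 8576 and 5069 of 9561 of all transcripts. RNA-Seq means were above the control for 3 of 12, 10 of 12 and 7 of 15 (medians -0.08, 0.20 and -0.01). The matched RNA-Seq libraries of GS/DA LRRK2 TG had unlike medians, 0.37 and -0.01. In the footprints of GS/DA LRRK2 TG these genes ran from -0.20 for Bcas1 to 0.21 for Olig2, the transcription factor of the lineage, while Sox10 stood at -0.34. Olig2 footprints were 464 and 519 in the control and 574 and 565 in GS/DA LRRK2 TG, without overlap, and the limma Benjamini-Hochberg adjusted p was 1.00. The extremes were Bcas1 (0.23) and Pdgfra (-0.07) in GS LRRK2 TG, and Ptprz1 (0.22) and Tnr (-0.24) in LRRK2 KO.

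For the genes that make the lipids of myelin, to which Ugt8a belongs by function, median footprint ratios ran from 0.05 to 0.08. Single genes, low ones included, ran from -0.53 (cholesterol, LRRK2 KO) to 0.38 (cholesterol, GS/DA LRRK2 TG). The matched LRRK2 KO libraries had opposite medians for the galactolipid and sphingolipid genes, 0.21 and -0.24. Of 11 genes of galactolipid and sphingolipid synthesis and turnover, 8 were above the control in the footprints of GS LRRK2 TG (median 0.08) and 8 in GS/DA LRRK2 TG (median 0.06), and 7 of 12 in LRRK2 KO (median 0.08). The extremes were Lass2 (0.28) and Arsa (-0.17) in GS LRRK2 TG, Arsa (0.23) and Sptlc2 (-0.11) in GS/DA LRRK2 TG, and Degs1 (0.22) and Ugcg (-0.11) in LRRK2 KO. Of 19 genes of cholesterol synthesis, 11 were above the control in GS LRRK2 TG (median 0.05) and 13 in GS/DA LRRK2 TG (median 0.08), and 14 of 21 in LRRK2 KO (median 0.06). TE of the cholesterol genes was higher for 7 of 19, 11 of 19 and 17 of 21 (medians -0.06, 0.02 and 0.13). That of the galactolipid and sphingolipid genes was higher for 7 of 11, 1 of 11 and 9 of 12 (medians 0.04, -0.07 and 0.07). Both stand beside the same counts of all transcripts. RNA-Seq means were above the control for 11 of 19, 15 of 19 and 4 of 21 cholesterol genes. For the galactolipid and sphingolipid genes they were above it for 6 of 11, 10 of 11 and 6 of 12. In footprints the highest in GS LRRK2 TG was Fdft1 (0.16), and the extremes were Dhcr7 (0.38) and Cyp51 (-0.17) in GS/DA LRRK2 TG, and Cyp51 (0.25) and Mvd (-0.16) in LRRK2 KO. By limma, 0 genes of these lists passed after Benjamini-Hochberg adjustment, and at an unadjusted p under 0.05 there was 1 cholesterol gene in GS/DA LRRK2 TG and 0 otherwise.

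Proteins that bind and carry the mRNA of Mbp were represented by 13 transcripts of 12 genes. Their footprint means were above the control for 5 of 13 in GS LRRK2 TG (median -0.04), 4 of 13 in GS/DA LRRK2 TG (median -0.06) and 9 of 13 in LRRK2 KO (median 0.02). Their RNA-Seq means were above the control for 1 of 13 in GS LRRK2 TG (median -0.36), 11 of 13 in GS/DA LRRK2 TG (median 0.21) and 0 of 13 in LRRK2 KO (median -0.14). TE was higher for 12 of 13 (median 0.31), 1 of 13 (median -0.26) and 13 of 13 (median 0.15), with RNA-Seq libraries that differed as given above. The matched RNA-Seq libraries did not go the same way, with medians of 0.35 and -0.24 in GS/DA LRRK2 TG and 0.10 and -0.45 in LRRK2 KO. Both were higher for 1 of 13 and lower for 1 of 13 in GS/DA LRRK2 TG, and higher for 0 and lower for 2 of 13 in LRRK2 KO. Of all transcripts, RNA-Seq was higher for 3796 of 8576, 5551 of 8576 and 4905 of 9561, and TE for 4699, 2872 and 5069. In footprints the extremes were Qk (0.16) and Hnrnpf (-0.13) in GS LRRK2 TG, Kif1b (0.08) and Hnrnpa1 (-0.12) in GS/DA LRRK2 TG, and Qk (0.08) and Hnrnpa1 (-0.14) in LRRK2 KO. Of 14 axonal partners of myelin, 9 were above the control in GS LRRK2 TG (median 0.03), 8 in GS/DA LRRK2 TG (median 0.02) and 8 in LRRK2 KO (median 0.02). The extremes were Nefh (0.22) and Cntnap1 (-0.18) in GS LRRK2 TG, Cntn2 (0.27) and Nefm (-0.21) in GS/DA LRRK2 TG, and Cntnap2 (0.15) and Nefh (-0.17) in LRRK2 KO. By limma, 0 genes of these lists passed after Benjamini-Hochberg adjustment, and 0 had an unadjusted p under 0.05.

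Markers of other cells of the dissected tissue were set beside the 9 genes, and whether the mix of cells accounts for any value of the 9 was not tested. Spiny neuron markers had footprint means below the control for 12 of 13 in GS LRRK2 TG (median -0.15) and 13 of 13 in GS/DA LRRK2 TG (median -0.22), and above WT for 11 of 13 in LRRK2 KO (median 0.09). The 10 resolved in every footprinting library summed to 76921 and 87297 in the non-TG control, against 61392 and 78943 in GS/DA LRRK2 TG. All 13 summed to 48449 and 37237 in WT and 51877 and 36774 in LRRK2 KO, and to 112790 and 160220 in the GS LRRK2 TG libraries, beside 147960 in the authors' control means. The extremes were Tac1 (0.15) and Gpr6 (-0.41) in GS LRRK2 TG, Drd2 (-0.14) and Penk (-0.53) in GS/DA LRRK2 TG, and Drd2 (0.32) and Penk (-0.06) in LRRK2 KO. In GS/DA LRRK2 TG limma called 0 of the 10 after Benjamini-Hochberg adjustment, with 0 at an unadjusted p under 0.05, while the block of matched libraries called 2 of the 10 lower, beside 0.991% of all transcripts.

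Cortical projection neuron markers were above the control for 4 of 5 in GS/DA LRRK2 TG, with a median log2 ratio of 1.05. Nrgn was the most abundant per kb and the lowest in change (-0.22), and Tbr1 the highest (1.42), with 491 and 289 footprints in the control and 1321 and 768 in GS/DA LRRK2 TG. The 4 without Nrgn summed to 1792 and 1243 in the control and 4335 and 2765 in GS/DA LRRK2 TG, without overlap. By limma 0 of 4 passed after Benjamini-Hochberg adjustment, 3 had an unadjusted p under 0.05 (143 of all 8474), and 3 were called higher with the matched libraries as a block (80 of all 8474). In GS LRRK2 TG 2 of 5 were above the control (median -0.21, from Slc17a7 at -0.24 to Cux2 at 0.17 among those above the minimum mean). All 5 summed to 15061 and 17565 in its libraries, beside 16278 in the control mean. In LRRK2 KO 5 of 9 were above WT (median 0.01, with Slc17a7 at -0.25 and Neurod6 at 0.12), and the sums were 10975 and 8149 in WT and 9591 and 8473 in LRRK2 KO.

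Astrocyte markers, of which Glul was the most abundant per kb, were above the control for 12 of 14 in GS LRRK2 TG (median 0.09), 11 of 14 in GS/DA LRRK2 TG (median 0.09) and 4 of 14 in LRRK2 KO (median -0.08). The 13 resolved summed to 49155 and 53806 in the control and 50803 and 56411 in GS/DA LRRK2 TG, and the 14 to 64408 and 64428 in GS LRRK2 TG beside a control mean of 61240. In the LRRK2 KO table the sums were 19715 and 11435 in WT and 20102 and 10269 in LRRK2 KO. The extremes were Gjb6 (0.26) and Aldh1l1 (-0.02) in GS LRRK2 TG, Gjb6 (0.27) and Ndrg2 (-0.04) in GS/DA LRRK2 TG, and Slc1a2 (0.11) and Gfap (-0.39) in LRRK2 KO. By these counts and those of microglia below, footprints of other glial markers were more often above than below the control in both transgenic tables. Of all transcripts, 4394 of 8576 were above the control in GS LRRK2 TG, 4075 of 8576 in GS/DA LRRK2 TG and 5201 of 9561 in LRRK2 KO.

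Microglia markers were above the control for 9 of 10 in GS LRRK2 TG (median 0.08) and 9 of 10 in GS/DA LRRK2 TG (median 0.08), and above WT for 10 of 10 in LRRK2 KO (median 0.08). The 10 summed to 7875 and 5832 in the control and 8225 and 6068 in GS/DA LRRK2 TG. Their sums were 7111 and 4623 in GS LRRK2 TG beside a control mean of 5416, and 1257 and 288 in WT and 1482 and 283 in LRRK2 KO. The extremes were Itgam (0.20) and C1qa (-0.01) in GS LRRK2 TG, and the highest in GS/DA LRRK2 TG was Cx3cr1 (0.23).

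Of vascular markers, Vtn alone is listed in the transgenic tables, with 286 and 225 footprints in the control and 198 and 280 in GS/DA LRRK2 TG, and 209 and 272 in GS LRRK2 TG beside a control mean of 191. Rgs5, the more abundant per kb, and 1 other are listed in the LRRK2 KO table, and they summed to 169 and 85.3 in WT and 150 and 79.7 in LRRK2 KO. Ependymal and choroid plexus markers, led by Ttr, were below the control for 3 of 3 in both transgenic tables. Ttr footprints were 1193 and 17057 in the control, against 5162 and 1137 in GS/DA LRRK2 TG, and 1037 and 408 in GS LRRK2 TG beside a control mean of 3944. The other extreme was Clic6, at -0.35 in GS/DA LRRK2 TG and -0.31 in GS LRRK2 TG. The 2 listed in the LRRK2 KO table summed to 155 and 143 in WT and 224 and 72.7 in LRRK2 KO. No marker that the tables hold was at 0 in any column. The authors had discarded transcripts with few reads, so this is no test of which cells were present.

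The pattern of the 9 genes over single libraries was set beside other transcripts. After centring per table, the median log2 footprints of the 9 were -0.13 and 0.13 in the non-TG control, -0.19 and 0.23 in GS/DA LRRK2 TG and -0.11 and 0.11 in the GS LRRK2 TG libraries. They were -0.07 and 0.22 in WT and -0.02 and -0.04 in LRRK2 KO. Over these 10 libraries, and among 1693 transcripts with a mean of at least 500 in every footprinting column, those most like this median were Rrp1 (Pearson r = 0.94), Mtpn (0.94), Tceal3 (0.92), Cdk5 (0.92) and Hnrnpa2b1 (0.91), beside a median r of -0.01. The libraries of a table share a difference between library 1 and library 2, so these values describe the libraries as much as the genes. Of the 9 themselves, Mog (0.95) and Mal (0.90) were most like the median of the other members, and Cnp (0.28) and Mag (0.25) least.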

How the data were processed

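The authors mapped footprinting and RNA-Seq reads of mouse caudate putamen to mm9 with TopHat2 2.0.11 and Bowtie2 2.2.2, after base calling with CASAVA 1.8 by the submitters' processing notes. The authors counted CDS reads of all isoforms of a gene together, discarded transcripts with few reads and divided by DESeq 1.20 size factors. The deposited group means are a signal of normalized reads without an SD. The authors deposited TE as log2 of the footprinting mean over the RNA-Seq mean. The other deposited column, of unit kcal/mol, is the predicted 5′UTR folding energy. The 6 deposited columns left out hold the authors' log2 TE difference and a score, the z score of it, which are their own comparisons.

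Reads of single libraries were recovered as the only pair of whole numbers that fitted a deposited mean, for 98.99% to 99.85% of transcripts per column. Where 2 pairs fitted, the deposited TE settled it, for 111 control and 92 genotype transcripts of GS/DA LRRK2 TG and 2 and 3 of LRRK2 KO. A mean of recovered reads gave the deposited TE for 99.98% to 100% of transcripts with a single fitting pair in both assays. A pair was kept only if it gave the deposited mean, so this match was nearly fixed in advance. It is no test of how the reads were split between the libraries. With a constant added to each mean as a control, 0.0628% to 0.979% of transcripts still had a single fitting pair. Matched libraries had differences correlated at a Spearman rho of 0.742 (footprints) and 0.978 (RNA-Seq) over the transcripts of GS/DA LRRK2 TG, and 0.764 and 0.685 for LRRK2 KO. The recovery and the use of TE to settle ties were chosen after the data were seen.

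Changes were tested within a table by limma 3.58.1 in R 4.3.3 with a trended prior, on log2 of normalized reads plus a pseudocount of 10, which understates changes of low genes. Adjustment was by Benjamini-Hochberg over all transcripts, with a threshold of 0.05. The TE difference was the interaction of genotype and assay, without pairing of the footprinting and RNA-Seq libraries of a lysate. The remaining values were computed in Python 3.11.15 with numpy 2.4.6, scipy 1.17.1 and pandas 2.3.3, and figures were drawn with matplotlib 3.10.9. CDS lengths and GC content (NCBIM37, GENCODE vM1) were matched for 97.1% of transcripts of the transgenic tables and 97.0% of the LRRK2 KO table.

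Named were the 9 genes, Lrrk2, the genes with the highest and the lowest footprint ratio in each list among those with all 4 group means of at least 128 (not all of them printed), and the 5 transcripts most like the median of the 9 among those with means of at least 500. The genes and lists were chosen with earlier results of these data known. Alternatives were a pseudocount of 1, group means of at least 256, scaling to total CDS reads, the matched-library block, ratios of the deposited means, and each library left out. For the non-TG control, 3 libraries per assay are labelled, and the columns do not say which of them entered each table. Of the 3 labelled footprinting libraries each of WT and LRRK2 KO, the means resolved into 2. Libraries of the ventral midbrain were not analysed here.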

Additional observations from a re-analysis of the deposited data

How the results depend on the processing

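Of the alternatives that kept every library, 95 values of the comparisons and 371 values of single genes stayed on their side of the threshold or within the spread of the libraries. The matched-library block raised the transcripts called by limma from 0 to 164 in footprints and 1 in RNA-Seq of GS/DA LRRK2 TG, and to 10 in footprints and 12 in RNA-Seq of LRRK2 KO. It raised the number of the 9 genes called from 0 to 1 (Sox10, in footprints of GS/DA LRRK2 TG) and called Lrrk2 in 3 fits. No paired analysis was possible by label because the deposited columns carry no replicate numbers, and the block used pairs found in the data. In GS LRRK2 TG, raising the log2 difference from 0.5 to 1 left 4 transcripts in footprints, 6 in RNA-Seq and 11 in TE. In WT, 3 of the 9 genes kept their place in the order of levels.

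Leaving out a library left a group with 1, which was assumed to vary like the other group. In footprints of GS/DA LRRK2 TG limma then called 2 to 42 transcripts: 42 without control library 1, 23 without control library 2, 2 without genotype library 1 and 23 without genotype library 2. None of the 9 was among them. The median log2 change of the 9 genes ranged over these fits from -0.17 to 0.25 in footprints, -0.70 to 0.96 in RNA-Seq and -0.86 to 0.64 in TE of GS/DA LRRK2 TG, and from -0.25 to 0.058, -0.64 to 0.35 and -0.43 to 0.58 in LRRK2 KO. So the direction of these medians was set by which library was left out. The cause of these shifts was not tested. With 2 libraries a group, a p that misses the threshold does not show that the genes did not differ.

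An alternative chosen after seeing the data took the median in footprints of GS/DA LRRK2 TG over only those of the 9 genes whose reads were settled without TE, and is in the counts above.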
